A study of Danio rerio with 6 samples.

Results

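The transcripts of 4 enzymes that make or use glutamate, glutamine and glutathione were followed in adult zebrafish testis tissue. They were asns, gpt2l, glulc and ggt1l2.2, each followed through the 1 transcript that the study's list gives for it, out of 46260 in the counts. Transcripts outside that list carried no symbol here, so any others of these genes were not examined. All 4 were among the 36363 transcripts left by the filter on low counts. The study called 409 transcripts on the basal against Insl3 contrast with DESeq at p under 0.05. Its methods name no adjustment for multiple testing. The members were chosen by gene symbol from this list, and so on the same contrast. Their differences between the conditions are therefore given as a description, with no test.

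Insulin-like 3 (Insl3) is a peptide hormone released by Leydig cells, and the experiment asked which testicular genes respond to it within a short exposure. Testes of wild-type adult males were cultured as explants, away from the pituitary, for 2 days without hormone. They were then incubated for another 2 days without hormone (basal, n = 3) or with zebrafish Insl3 at 100 ng/mL (Insl3, n = 3), and each testis gave 1 RNAseq library. Total counts ranged from 20967304 to 28939006, and deviations from the condition means correlated at r = 0.58 to 0.73 between same-numbered basal and Insl3 libraries, which are called pairs here. Markers of Sertoli cells, Leydig cells and spermatogonia could not be matched to a transcript through the called list, so the tissue label was not checked. The spermatid-type genes klhl10a and cfap73, both from that list, were above 1.91 CPM in all 6 libraries.

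Glutamate stands at the centre of amino acid nitrogen metabolism. Glutamine synthetase (glulc) joins ammonia to glutamate, asparagine synthetase (asns) takes the amide nitrogen of glutamine to make asparagine and returns glutamate, and alanine aminotransferase (gpt2l) passes an amino group between alanine and glutamate while linking them to pyruvate. Gamma-glutamyltransferase (ggt1l2.2) acts at the cell surface, where it splits the gamma-glutamyl bond of glutathione. Glutathione is itself built from glutamate, cysteine and glycine, and it protects cells, germ cells among them, from oxidative damage. In mammals, ASNS is a well-known target of the transcription factor ATF4, which is induced when amino acids are scarce.

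With Insl3 the asns and gpt2l transcripts were lower and the glulc and ggt1l2.2 transcripts were higher. The difference was about even over the pairs for asns and ggt1l2.2, largest in pair 3 for glulc, and for gpt2l it rested on 1 basal testis. Groups of values did not overlap for 3 of the 4 transcripts, against 5.22% of all tested transcripts, and 3 of the 4 moved one way in all 3 pairs, against 37.5%. Nothing is read from these counts, since the list was called on this contrast. Over the whole table, edgeR's quasi-likelihood test gave 0 transcripts with an adjusted p under 0.05, while 538 (1.48%) had an unadjusted p under 0.05. Transcripts with higher levels made up 0.542% and those with lower levels 0.938%. With the replicate number as a block this was 4920 (13.5%), and again 0 after adjustment. In whole-tissue RNA, fewer cells of a type and less RNA per cell cannot be told apart. Values are CPM, counts scaled to a common library size after TMM normalization, and they are not compared between transcripts because they are not scaled to length.

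**Figure D1:**
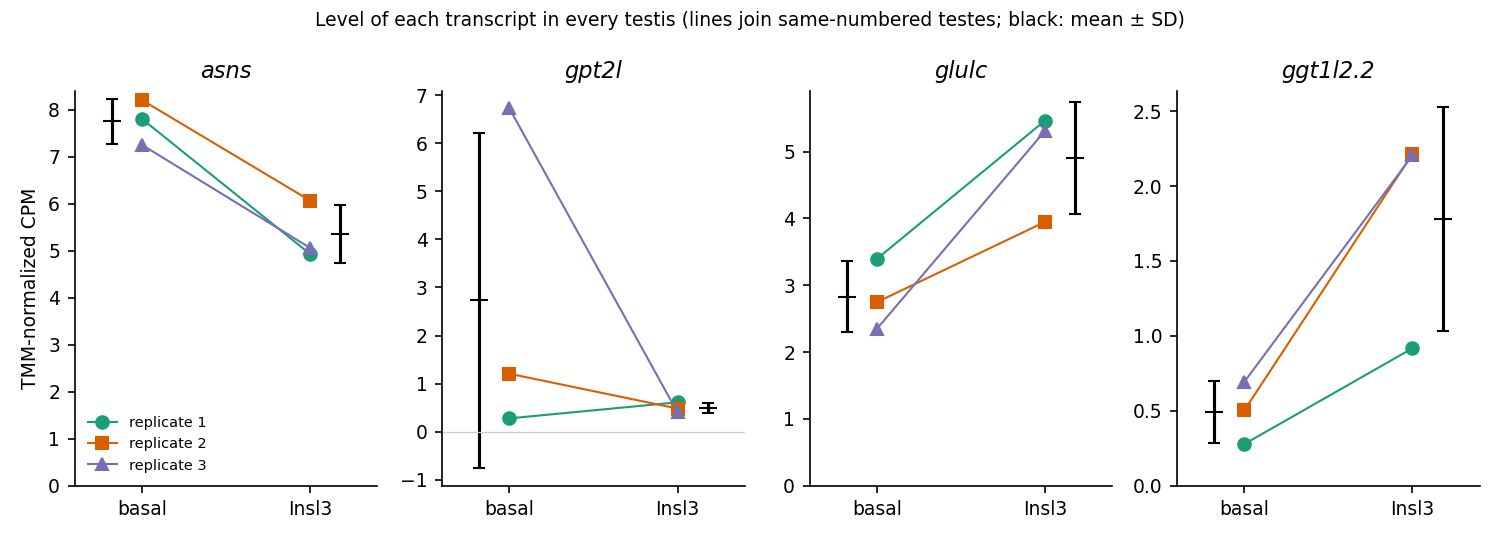
TMM-normalized CPM (vertical axis) of asns, gpt2l, glulc and ggt1l2.2 under basal conditions and with Insl3, 1 point per testis, with lines joining testes of the same replicate number and black marks for mean ± SD (n = 3). The asns lines all slope down and the glulc and ggt1l2.2 lines all slope up, whereas gpt2l has a single high point of 6.72 CPM in basal replicate 3.

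The asns transcript (ENSDART00000121476.2) was counted 253, 245 and 136 times in basal replicates 1, 2 and 3, against 129, 126 and 101 times in the Insl3 replicates. Normalized levels were 7.81, 8.21 and 7.25 CPM in the basal testes against 4.93, 6.07 and 5.06 CPM in those given Insl3. The lowest basal testis thus stood above the highest Insl3 testis. Means were 7.76 ± 0.479 CPM (SD, n = 3) and 5.35 ± 0.623 CPM (SD, n = 3), a 1.45-fold lower level with Insl3, and the fitted log2 difference was -0.54 (standard error 0.23). The ratio of Insl3 to basal was 0.631, 0.739 and 0.698 in pairs 1, 2 and 3, and each 95% counting interval stayed below 1 (upper bounds 0.784, 0.920 and 0.909). These intervals, here and for the other transcripts, are exact binomial ones and cover counting error only. Even that error may be understated, since reads copied by PCR are not independent molecules. Each interval compares 1 testis with 1 other and leaves out the variation between testes. The intervals are given as a description and are no test of Insl3. Of the 4 transcripts, asns had the smallest spread. Its SD on the log2 scale was 0.09 under basal conditions, where 4.99% of the tested transcripts had a smaller one, and 0.16 with Insl3, where 13.5% did. Nothing is read from these ranks. A difference as small as that of asns is called only where the spread is small, and asns was taken from the called list.

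The gpt2l transcript (ENSDART00000133007.1) was found in 9, 36 and 126 reads of the basal libraries, compared with 16, 10 and 8 reads of the Insl3 libraries. In CPM these were 0.278, 1.21 and 6.72 against 0.612, 0.482 and 0.401. The basal values covered a 24.2-fold range and included both the lowest and the highest of the 6, while the Insl3 values lay close together, within 1.53-fold. The means of 2.74 ± 3.48 CPM and 0.498 ± 0.106 CPM (SD, n = 3 each) gave a fitted log2 difference of -2.41 (standard error 1.04), and basal replicate 3 alone held 81.9% of the summed basal CPM. Without that library the log2 difference was -0.53 (standard error 0.71). With the replicate block it was -1.62 (standard error 0.80). In pair 1 the Insl3 testis was 2.2-fold above the basal one, with a counting interval of 0.916 to 5.65 that includes no difference. In pairs 2 and 3 the ratios were 0.399 (0.177 to 0.821) and 0.0596 (0.0252 to 0.121), so the pairs went in different directions. On the log2 scale, the differences in the 3 pairs spanned 4.77, more than in 99.5% of the tested transcripts.

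Several genes typical of hepatocytes were high in the same basal testis. Of a list of 19 such markers, 8 could be matched, all of them from the called list, and 7 of the 8 had their highest value in basal replicate 3. Their summed level was 77.3, 120 and 532 CPM in basal replicates 1, 2 and 3 and 33.1, 65.6 and 16.7 CPM with Insl3, and none was at 0 in any library. The tfa transcript, which encodes transferrin, made up most of this sum in every library except Insl3 replicate 3, where it had 6.51 CPM. Without tfa the sum was 11.7, 17.0 and 69.0 CPM in the basal libraries and 8.56, 9.20 and 10.2 CPM with Insl3, so basal replicate 3 again stood apart. The kininogen gene kng1 went from 2.47 and 4.36 CPM in basal replicates 1 and 2 to 27.6 CPM in replicate 3, and the acyltransferase gene soat2 from 0.185 and 1.11 to 5.12 CPM. Like gpt2l, soat2 was higher with Insl3 in pair 1 and lower in pairs 2 and 3. The remaining exception, leap2, which encodes an antimicrobial peptide, was highest in basal replicate 2. All 8 hepatocyte-list genes had lower means with Insl3, so a peak in some basal library was favoured by the choice of list. The share of all tested transcripts with a peak in basal replicate 3 was not computed, and the list was chosen with earlier results of these data known. Nothing is therefore read from the 7 of 8. Called genes outside the hepatocyte list, pck2, slc38a3b, gpa33 and the collagen gene col24a1, were also highest there, while asns and prodha were highest in basal replicate 2. The part of hepatocytes or of the listed genes in the gpt2l result was not tested.

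**Figure D2:**
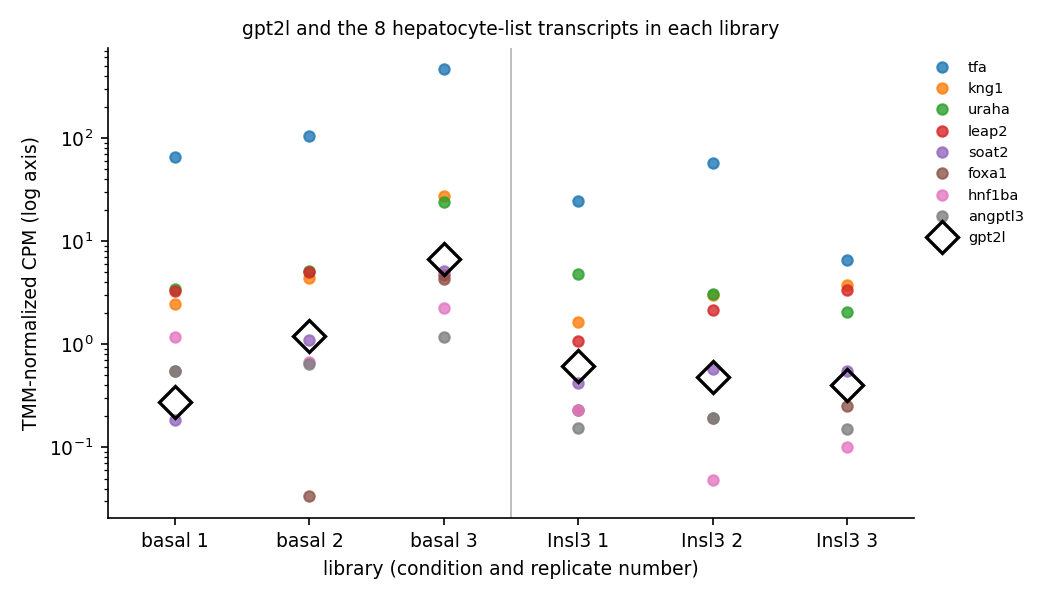
TMM-normalized CPM on a log axis in each of the 6 libraries (horizontal axis) for gpt2l (open diamonds) and the 8 matched transcripts of the hepatocyte list (coloured points). Basal replicate 3 holds the highest value of gpt2l, 6.72 CPM, and of every hepatocyte-list transcript except leap2.

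The glulc transcript (ENSDART00000142145.1) gave 110, 82 and 44 reads in the basal testes, whereas the Insl3 testes gave 143, 82 and 106. Scaled to library size, these were 3.39, 2.75 and 2.35 CPM against 5.47, 3.95 and 5.31 CPM. The equal counts of 82 in pair 2 thus became a difference only through normalization. The Insl3 library of that pair had both the lower total (21178283 against 27579750) and the lower TMM factor (0.9817 against 1.0837). Means were 2.83 ± 0.529 and 4.91 ± 0.835 CPM (SD, n = 3 each), 1.73-fold higher with Insl3, with a fitted log2 difference of 0.79 (standard error 0.29). Within pairs the ratios were 1.61 (1.25 to 2.08), 1.44 (1.05 to 1.98) and 2.26 (1.58 to 3.29), with 95% counting intervals in brackets. With TMM scaling all 3 intervals lay above 1, but that of pair 2 did so by a narrow margin that rested on the TMM factors. Counting intervals were not computed with library totals, so the place of pair 2 above 1 is not secure. With library totals in place of TMM the log2 difference was 0.68 (standard error 0.33), still positive.

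The ggt1l2.2 transcript (ENSDART00000130630.3) had few reads in every library, 9, 15 and 13 in the basal testes against 24, 46 and 44 in the Insl3-treated ones. These correspond to 0.278, 0.503 and 0.693 CPM and to 0.917, 2.22 and 2.21 CPM. The 3 Insl3 testes were above the 3 basal ones, and replicate 1 was the lowest in both conditions. Means were 0.491 ± 0.208 and 1.78 ± 0.747 CPM (SD, n = 3 each), 3.62-fold higher with Insl3, and the fitted log2 difference was 1.87 (standard error 0.54). Ratios within pairs were 3.30 (1.48 to 8.07), 4.41 (2.42 to 8.50) and 3.18 (1.68 to 6.43). The wide counting intervals reflect the low counts, and they overlap one another. Differences between the pairs were not tested, and sizeable ones could go unseen at this depth. The RefSeq gene table of assembly GRCz12tu lists 8 zebrafish genes of the gamma-glutamyltransferase family, among them ggt1l2.1, which lies near ggt1l2.2 on the same chromosome. How the authors' counting treated reads that suit more than 1 copy was not measured here, which leaves an uncertainty in the value of this member. The same table lists glula and glulb beside glulc, and it carries gpt2l as an older name of gpt.

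**Figure D3:**
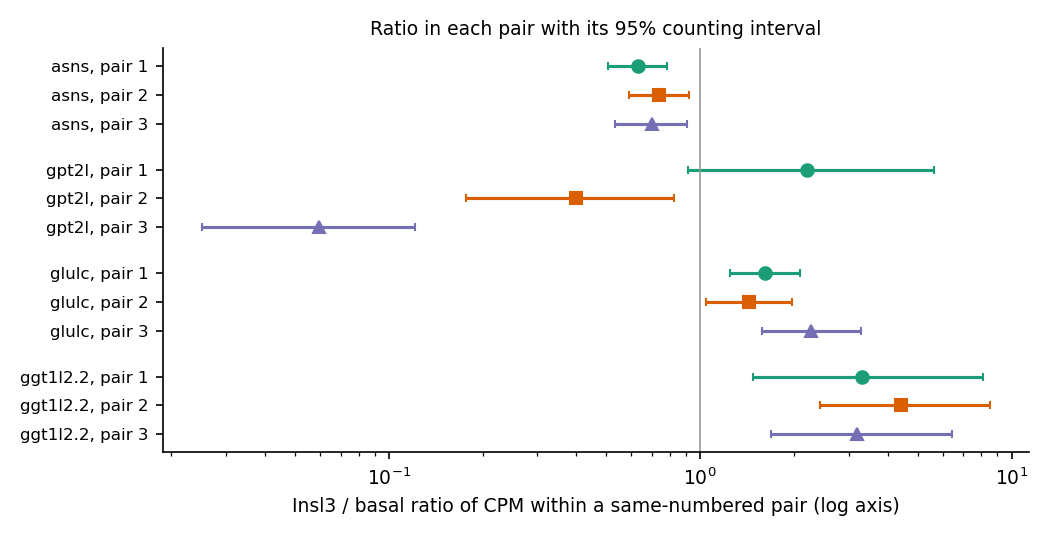
Ratio of Insl3 to basal CPM (horizontal log axis) within each same-numbered pair for the 4 transcripts, with points for the ratio and bars for its 95% exact counting interval. The bars leave out variation between testes and are no test of Insl3. With TMM scaling, all intervals of asns lie below 1 and all of glulc and ggt1l2.2 above it, that of glulc in pair 2 narrowly. The ratio of gpt2l runs from 2.2 in pair 1 to 0.0596 in pair 3.

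Leaving out each library in turn kept the direction of all 4 transcripts. For asns, glulc and ggt1l2.2, whose groups of values did not overlap, this was close to fixed in advance. The log2 difference of asns then stayed between -0.63 and -0.48, that of glulc between 0.68 and 0.94 and that of ggt1l2.2 between 1.57 and 2.19. For gpt2l it ran from -2.96 to -0.53, the smaller value without basal replicate 3. When both libraries of replicate 3 were left out, a fit added after seeing the data, gpt2l had a log2 difference of -0.42 (standard error 0.80), whereas asns kept -0.55 (standard error 0.25), glulc 0.60 (standard error 0.32) and ggt1l2.2 1.99 (standard error 0.66).

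**Figure D4:**
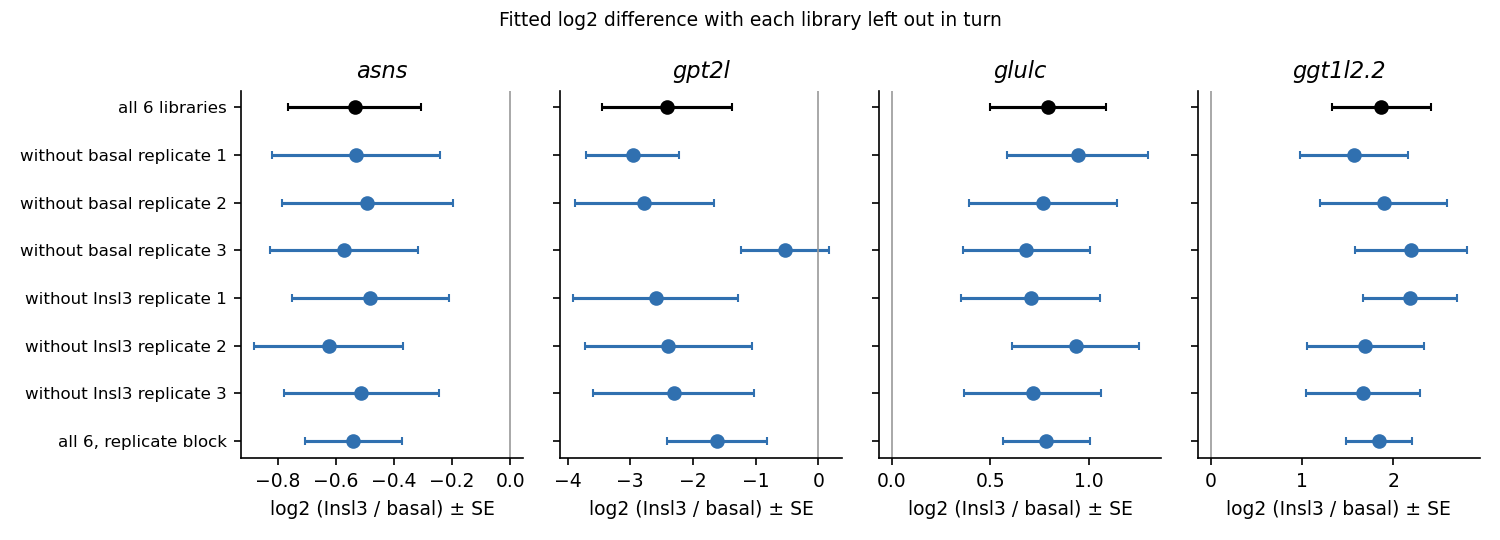
Fitted log2 difference between Insl3 and basal libraries (horizontal axis, ± standard error) of the 4 transcripts with all 6 libraries, with each library left out in turn and with the replicate number as a block. The estimates of asns, glulc and ggt1l2.2 stay close together, and that of gpt2l shrinks from -2.41 to -0.53 without basal replicate 3.

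Differences between the replicate numbers, taken over both conditions, were tested as well. The study's methods name no replicate block for the called list, so spread between replicates would count against a call. Few calls among the members in this test are therefore no separate evidence about them. In edgeR's quasi-likelihood test of the replicate number in a model that also held the condition, 34.3% of the tested transcripts had an adjusted p under 0.05. None of the 4 enzymes did. The adjusted p of edgeR's test was 0.622 for asns, 0.469 for glulc, 0.123 for gpt2l and 0.0974 for ggt1l2.2. Before adjustment, 1 of the 4, ggt1l2.2, fell under 0.05, against 47.4% of the tested transcripts. Mean log2 CPM of ggt1l2.2 was -0.74, 0.21 and 0.41 in replicates 1, 2 and 3, so that number 3 exceeded number 1 by 1.15. For gpt2l the means were -1.0, -0.23 and 0.86, an excess of 1.86 that came from the basal testis only. With gpt2l the outcome depended on single libraries. The adjusted p in edgeR's test was 0.0472 without Insl3 replicate 1 and 1.07e-05 without Insl3 replicate 3, when number 3 was represented by basal replicate 3 alone. The number of transcripts called over the whole table was 12467 with all 6 libraries, but 4561 without basal replicate 1, 4144 without Insl3 replicate 1 and 8056 without Insl3 replicate 2.

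The variation inside the conditions differed from member to member. Deviations from the condition means correlated at r = -0.76 between glulc and ggt1l2.2, at r = -0.68 between glulc and gpt2l and at r = 0.52 between gpt2l and ggt1l2.2, over the same 6 libraries, and these values describe those libraries only. Among 387 other tested transcripts with a gene symbol, all from the called list, the deviations of ggt1l2.2 were most like those of pimr130 (r = 0.997), pimr113 (r = 0.991) and bx510646.1 (r = 0.986). The first 2 belong to a family of Pim-related kinase genes. Such likeness was common, since 3.43% of all tested transcripts exceeded r = 0.95 with ggt1l2.2. Those of gpt2l were closest to the collagen gene col24a1 (r = 0.975), to soat2 (r = 0.975) and to si:ch211-117m20.5 (r = 0.968), and 0.385% of the tested transcripts exceeded r = 0.95. For glulc the nearest were larp4aa (r = 0.974), gabpb2a (r = 0.933) and ptpdc1b (r = 0.919), and for asns isl2b (r = 0.960), si:dkey-30c15.12 (r = 0.944) and si:dkey-156k2.7 (r = 0.928). Of the tested transcripts, 0.575% exceeded r = 0.95 with glulc and 0.968% with asns. The neighbours of gpt2l were lower with Insl3 and those of ggt1l2.2 higher, as these members were. For glulc only ptpdc1b was higher as well, while larp4aa and gabpb2a were lower, and the 3 neighbours of asns were higher although asns was lower. Nothing is read from these directions, since every neighbour was called on the same contrast.

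Other genes of these pathways could be matched only where the called list names them, and their directions are therefore no separate evidence. In a list of 58 enzymes of glutamate, glutamine, asparagine, aspartate, alanine and proline metabolism, 4 were matched, of which 3 are members and 1 is prodha, the proline dehydrogenase that starts the conversion of proline to glutamate. Of these 4, 1 was higher and 3 were lower, with a median log2 difference of -0.86 against 0.01 over all tested transcripts. The basal levels of prodha were 1.88, 2.75 and 1.6 CPM, and those with Insl3 were 0.726, 1.2 and 0.802 CPM. All 3 Insl3 values were below the basal ones, and the log2 difference of -1.19 (standard error 0.40) was present in every pair, from -1.28 to -0.93.

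In the glutathione list 2 of 59 genes were matched, ggt1l2.2 and the glutathione peroxidase gene gpx1b, both higher, with a median log2 difference of 1.43. Glutathione peroxidases use glutathione to remove peroxides. For gpx1b the values were 7.75, 12.3 and 13.8 CPM under basal conditions and 12.4, 18.5 and 36.6 CPM with Insl3, so the groups overlapped although each pair was higher with Insl3 (log2 differences 0.68, 0.59 and 1.4). Its replicate numbers differed in edgeR's test (adjusted p = 0.00967), a threshold that ggt1l2.2 did not pass.

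Among 40 genes of the amino acid response, 2 were matched and both were lower, as asns was, with a median log2 difference of -1.09. The shmt2 transcript encodes the mitochondrial enzyme that splits serine to glycine, and it had 6.73, 9.28 and 8.43 CPM under basal conditions against 4.47, 6.69 and 3.61 CPM with Insl3. Its groups were separated by a narrow margin only. The pck2 transcript, for mitochondrial phosphoenolpyruvate carboxykinase, had 13.1, 20.8 and 60.2 CPM against 12.7, 14.2 and 7.52 CPM. Here, as for gpt2l, basal replicate 3 was far above the other basal testes and held 63.9% of the summed basal CPM.

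Of 42 listed amino acid transporters, 3 were matched, with 2 higher, 1 lower and a median log2 difference of 0.77. The lower one was slc38a3b, of a family of glutamine carriers, for which the basal libraries held 122, 49 and 350 reads and the Insl3 libraries 50, 21 and 2. On the log2 scale pair 1 differed by -0.95, pair 2 by -0.66 and pair 3 by -6.69. In that last pair, basal replicate 3 was the highest and Insl3 replicate 3 the lowest of the 6 libraries. The neutral amino acid transporter gene slc6a19b had 3.21, 2.95 and 2.88 CPM under basal conditions and 5.05, 3.28 and 7.17 CPM with Insl3. For slc7a14b, of a family of cationic amino acid transporters, the values were 1.51, 0.570 and 0.693 CPM against 2.06, 1.78 and 2.31 CPM. Both were higher with Insl3 in every pair, as was glulc.

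**Figure D5:**
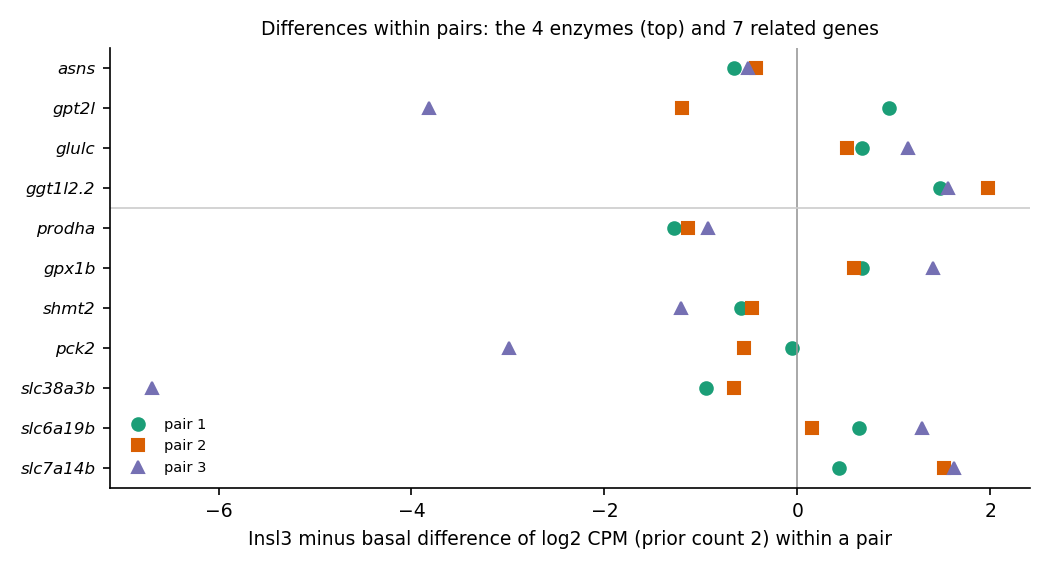
Difference of log2 CPM between Insl3 and basal testes (horizontal axis, prior count 2) within each same-numbered pair for the 4 enzymes and 7 related genes, 1 symbol per pair. Pair 3 is the most negative for gpt2l, shmt2, pck2 and slc38a3b, reaching -6.69 for slc38a3b. The 3 points of asns lie within 0.22 of each other.

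Other marker lists, too, were matched only through genes of the called list. The summed level was 1.42 to 1.88 CPM under basal conditions and 2.94 to 4.51 CPM with Insl3 for 2 of 12 exocrine pancreas genes, and 1.91 to 2.48 against 3.55 to 12.1 CPM for 2 of 7 blood genes. In the blood list the myeloperoxidase gene mpx differed between pairs, with 0.247, 0.771 and 0.320 CPM in the basal libraries against 0.0764, 3.90 and 7.12 CPM, so it was lower with Insl3 in pair 1. For 2 of 8 spermatocyte and spermatid genes the sum was 17.4 to 19.8 against 28.4 to 32.7 CPM, and for 4 of 8 genes of intestinal and kidney epithelium it was 3.49 to 7.2 against 4.70 to 9.57 CPM, with overlap. Single genes of that last list went the other way, slc26a3.2 from a mean of 1.49 ± 0.882 to 0.498 ± 0.137 CPM and gpa33 from 1.08 ± 1.2 to 0.212 ± 0.0802 CPM (SD, n = 3 each), and for gpa33 the groups overlapped. No matched marker was at 0 in any library. The part of these cell types in the values of glulc and ggt1l2.2 was not tested.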

How the data were processed

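RNAseq libraries came from 3 basal and 3 Insl3-treated adult testes, grouped by the sample titles. Per the labels and the study's methods, the authors aligned reads to GRCz10 with TopHat2 (2.0.12) and counted them with HTSeq (0.6.1). The deposited values are raw counts for each Ensembl transcript, with no normalization. The annotation release, strand setting and counting mode are not given in the sources used here. Transcripts were matched to symbols through the ID and symbol columns of the study's list of 409 transcripts. Its columns of means, fold changes and p-values were not used.

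Counts were analysed in R 4.3.3 with edgeR 4.0.16 (filterByExpr, minimum count 10, TMM, quasi-likelihood test, two-sided, Benjamini-Hochberg adjustment over 36363 transcripts). Standard errors are the log2 difference divided by the square root of F. Log2 CPM used a prior count of 2. Same-numbered basal and Insl3 libraries were taken as pairs because each of the 3 correlations of their deviations from the condition means was over 0.1. The study's text does not say whether they share a male, so the pairing comes from the data. The functions were tested on simulated data. Alternatives were DESeq2 1.42.0, RLE factors, library totals, other filters, the replicate block and libraries left out. Named genes were the 4 members, matched genes of fixed pathway and marker lists, and the 3 transcripts with a symbol most like each member. Members and lists were chosen with earlier results of these data known.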

Additional observations from a re-analysis of the deposited data

How the results depend on the processing

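Over 64 log2 differences of the 4 enzymes under alternative settings, the direction was the same in 64, and 62 moved by less than 1 SD of the replicates. The exceptions were both gpt2l without basal replicate 3, and with replicates left out its value ran from -3.14 to -0.42. For gpt2l 1 SD was 1.52 on the log2 scale, a wide limit. The groups of asns, glulc and ggt1l2.2 did not overlap, so leaving libraries out could hardly change their direction. All settings refit the same 6 libraries, so the kept directions are no separate evidence. With replicates left out, asns ran from -0.63 to -0.48, glulc from 0.60 to 0.94 and ggt1l2.2 from 1.57 to 2.19. The number of transcripts with an unadjusted p under 0.05 between the conditions was 538, of which 341 were lower. It was 845 without a filter on low counts, 4920 with the replicate block (45.3% lower) and 3429 with DESeq2 and the block (39.3% lower). In that last fit, added after seeing the data, 477 passed after adjustment. Neither asns nor glulc was among them (DESeq2 adjusted p 0.342 and 0.21), and gpt2l and ggt1l2.2 received no adjusted p. With replicates left out, the number with an unadjusted p under 0.05 ran from 170 (without Insl3 replicate 3) to 1472 (without basal replicate 3). Directions were split about evenly without basal replicate 3 (743 higher, 729 lower), and most were higher without Insl3 replicate 1 (539 of 885). Scaling by library totals alone also gave 538, but 424 of them (78.8%) were lower, against 63.4% with TMM and 54.5% with DESeq2. With the replicate block in edgeR, the log2 difference of gpt2l moved from -2.41 to -1.62. Those of asns (-0.54), glulc (0.78) and ggt1l2.2 (1.85) hardly moved. Standard errors with the block were 0.17 for asns, 0.80 for gpt2l, 0.22 for glulc and 0.36 for ggt1l2.2, each smaller than without it. The number of transcripts that differed between replicate numbers (12467) ran from 4144 to 16117 with single libraries left out. The block changed no direction. Counts below 50 per library for gpt2l (outside basal replicate 3) and ggt1l2.2 limit the precision of their ratios.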
